A study of Bos taurus with 6 samples.

Results

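The mitochondrial folate enzymes and the glycine cleavage system were followed through 10 genes, namely MTHFD1L, MTHFD2, MTHFD2L, SHMT2, ALDH1L2, MTFMT, AMT, GLDC, GCSH and DLD. Their probes were found by gene symbol in the platform annotation, with earlier results of these data known when the genes were chosen, and they make up 10 of the 15216 named genes on the array. The array holds 22 probes for them. Of these, 14 were bright enough to test, and every one of the 10 genes had at least 1 tested probe.

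Mitochondria hold a folate pathway of their own. Serine is split there into glycine and a one-carbon unit, which is carried on tetrahydrofolate, oxidised in steps and released as formate for the synthesis of purines and thymidylate in the cytosol. The glycine cleavage system breaks glycine down to carbon dioxide and ammonia and passes its remaining carbon to the same folate carrier. Folic acid supplies the carrier, and vitamin B12 serves the methionine synthase reaction that returns methyl-folate to this pool. Granulosa cells line the follicle and divide until ovulation nears, and dividing cells draw on formate for nucleotides.

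The study compared granulosa cells of postpartum dairy cows (Bos taurus) given folic acid (320 mg) with vitamin B12 (10 mg), called vitamins here, with those of cows given 0.9% saline. Per the labels, dosing began 3 weeks ahead of calving and ended on postpartum day 57 ± 2 in both groups. Cells were aspirated through the vagina from preovulatory follicles of at least 12 mm, 66 ± 2 h after the second prostaglandin F2alpha injection, on postpartum day 57 ± 3, with a second attempt at 71 ± 3 if the first found none. Each of the 3 biological replicates was an RNA of the vitamin group set directly against an RNA of the saline group on a pair of dye-swapped arrays, 6 arrays in all. Whether 1 cow or several gave the RNA of a replicate is not stated in the labels, and p-values measure the spread between these 3 replicates only.

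A reading is the signal of a probe in 1 channel of 1 array, so each group has 6 readings per probe. It was called detected when it exceeded the mean plus 2 SD of 153 negative control spots of that array and channel. Between 53.1% and 68.7% of gene probes were detected per channel. The log2 ratios of the 2 arrays of a pair correlated at 0.75, 0.66 and 0.32 across probes for replicates 1, 2 and 3, and those of arrays from different pairs between -0.24 and 0.21. Replicate 1 lay on 1 slide and replicates 2 and 3 on another. Of 10 granulosa markers, 9 were bright enough to test, and the aromatase gene CYP19A1 and the inhibin gene INHA were among them. FOXL2 was detected in 4 of 12 readings and not tested.

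None of the 10 genes passed the test. With limma and Benjamini-Hochberg adjustment over all 26713 probes tested, 0 of 10 had an adjusted p under 0.05, as did 0% of the 10946 named genes tested. At an unadjusted p under 0.05 the count was also 0 of 10, against 3.26% of all genes lower and 2.89% higher. The mean log2 ratio of vitamins over saline was below 0 for 5 of the genes and above 0 for the other 5. The readings of vitamins and saline overlapped for all 10, while 1.32% of all genes had readings that did not overlap. Their median was -0.06, against 0.01 over all genes tested. The widest differences were those of GCSH (0.77) and MTHFD2 (-0.61). The intervals were broad, and those of only 3 genes, MTHFD2L, ALDH1L2 and MTFMT, lay wholly inside a 2-fold difference in either direction. Over all genes tested this held for 7271 of 10946. In whole populations of cells, fewer cells of a type and less RNA per cell cannot be told apart.

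**Figure D1:**
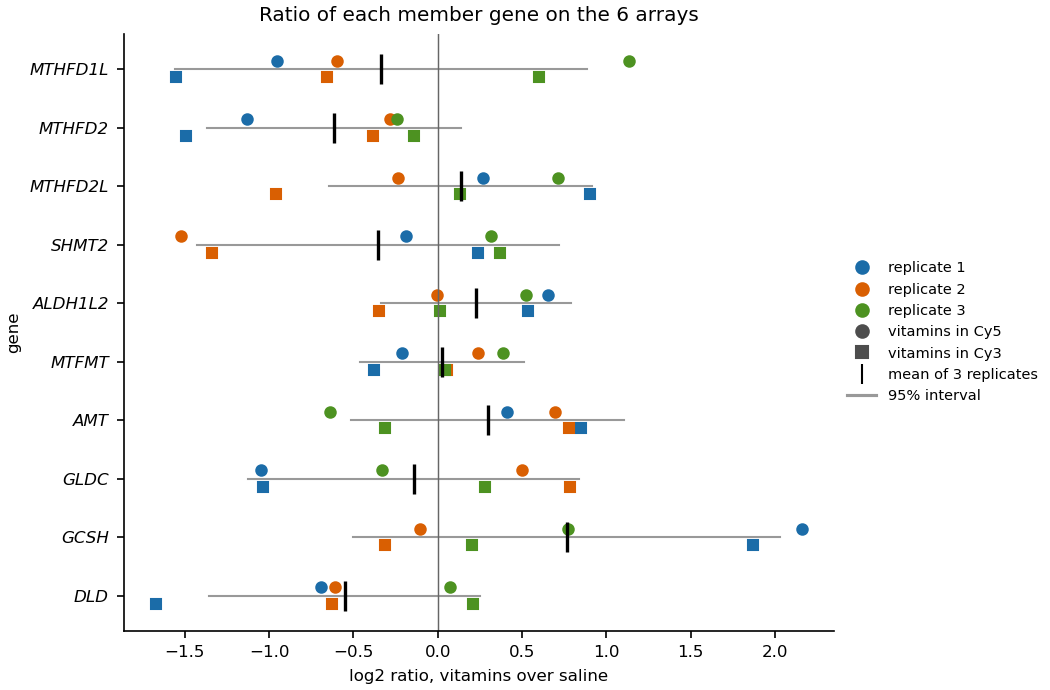
The plot gives the log2 ratio of vitamins over saline of each of the 10 genes (brightest tested probe) on each of the 6 arrays. Points are coloured by replicate and shaped by dye orientation, and the mean of the 3 replicates is drawn with its 95% interval. Every interval crosses 0, and MTHFD2 is the gene whose ratios lie below 0 on all 6 arrays, from -1.49 to -0.14.

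SHMT2 is the mitochondrial serine hydroxymethyltransferase, which splits serine and so opens the pathway. Its level, the normalized log2 intensity averaged over both dyes, was 11.27, 10.27 and 11.16 in vitamin replicates 1, 2 and 3, against 11.25, 11.70 and 10.81 in the saline replicates. The vitamin sample of replicate 2 was the lowest of the 6 and the groups overlapped. The ratios were 0.03, -1.43 and 0.34, with a mean of -0.35 ± 0.95 (SD, n = 3, 95% interval -1.43 to 0.72, limma adjusted p = 0.9998). Replicate 2 alone set the sign, since without it the mean was 0.18. Both arrays of that replicate showed the low ratio, at -1.52 and -1.34.

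MTHFD2 is the NAD-dependent enzyme that oxidises the one-carbon unit after SHMT2, and it is known for high levels in dividing and tumour cells and low levels in many adult tissues. Its level was 6.89, 7.27 and 7.59 in the vitamin replicates, against 8.20, 7.60 and 7.78 in the saline replicates. By replicate the groups separated narrowly, 7.59 being the highest vitamin level and 7.60 the lowest saline level, and in single readings they overlapped, since the highest vitamin reading (7.62) stood just above the lowest saline reading (7.56). The ratio was below 0 on all 6 arrays, from -1.49 to -0.14. Across all genes, 5.19% were lower on all 6 arrays and 12.4% in all 3 replicates, and MTHFD2 was 1 of 10 here in both counts. In the other direction 5.02% of all genes were higher on all 6 arrays and 12.8% in all 3 replicates, against 0 of 10 here. Its mean was -0.61 ± 0.61 (SD, n = 3), a level 1.53-fold lower with vitamins, with an interval from -1.37 to 0.14 and a limma adjusted p of 0.9998. In limma's fit the unadjusted p was 0.0885, the second lowest among the genes' 14 tested probes. The signal was dim. It was detected in 3 of 6 vitamin readings, being at control level on arrays 1, 2 and 3, and in 6 of 6 saline readings, so that the size of the ratio rests partly on readings near background. Without replicate 1 the mean was -0.26. In the authors' deposited table the same probe was at -1.03, -0.95, -0.47 and -0.32 on arrays 1 to 4 and at 0.12 and 0.10 on arrays 5 and 6, so replicate 3 was not lower there. Its other probe was detected in 0 of 12 readings.

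MTHFD2L, the related enzyme that carries out the same step and is also present in adult tissues, showed no common direction. Its level was 8.39, 8.13 and 7.93 with vitamins, against 7.81, 8.73 and 7.51 with saline. The vitamin replicates lay inside the range of the saline ones. The ratios were 0.58, -0.60 and 0.42, with a mean of 0.14 ± 0.64 (SD, n = 3, interval -0.65 to 0.92). Without replicate 1 the mean was -0.09. Only 1 of its 4 probes was tested, and the others were detected in at most 1 of 12 readings.

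MTHFD1L is the mitochondrial formyl-tetrahydrofolate synthetase that releases formate for export. Its level was 10.01, 11.28 and 11.98 in the vitamin replicates, against 11.27, 11.91 and 11.11 in the saline replicates. The vitamin samples held both the lowest and the highest of the 6 values, with a range of 1.96 on the log2 scale, against 0.80 in saline. The ratios were -1.25, -0.63 and 0.87, with a mean of -0.34 ± 1.09 (SD, n = 3, interval -1.56 to 0.88). The second tested probe ran in the same order, at -1.10, -0.33 and 1.10. Replicate 3 thus opposed the other replicates on both probes, and without replicate 1 the mean of the brighter probe was 0.12.

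ALDH1L2 oxidises formyl-tetrahydrofolate to carbon dioxide and yields NADPH. Its level was 9.31, 7.24 and 7.79 with vitamins, against 8.71, 7.41 and 7.52 with saline. Both groups were highest in replicate 1, the replicate on a slide of its own, so slide and replicate cannot be told apart in these levels. The ratios were 0.59, -0.18 and 0.27, with a mean of 0.23 ± 0.39 (SD, n = 3, interval -0.33 to 0.79). The probe was detected in 5 of 6 readings of each group, with array 4 below the limit in both. Without replicate 1 the mean was 0.046 and without replicate 2 it was 0.43.

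MTFMT attaches the formyl group to the methionyl-tRNA that starts mitochondrial protein synthesis. Its level was 11.20, 11.78 and 12.08 with vitamins, against 11.50, 11.63 and 11.86 with saline. It had the narrowest spread of the 10 genes. The ratios were -0.29, 0.15 and 0.22, with a mean of 0.02 ± 0.28 (SD, n = 3, interval -0.46 to 0.51), and the sign of so small a mean turned under several settings. Its other 2 probes were detected in 0 of 12 readings.

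**Figure D2:**
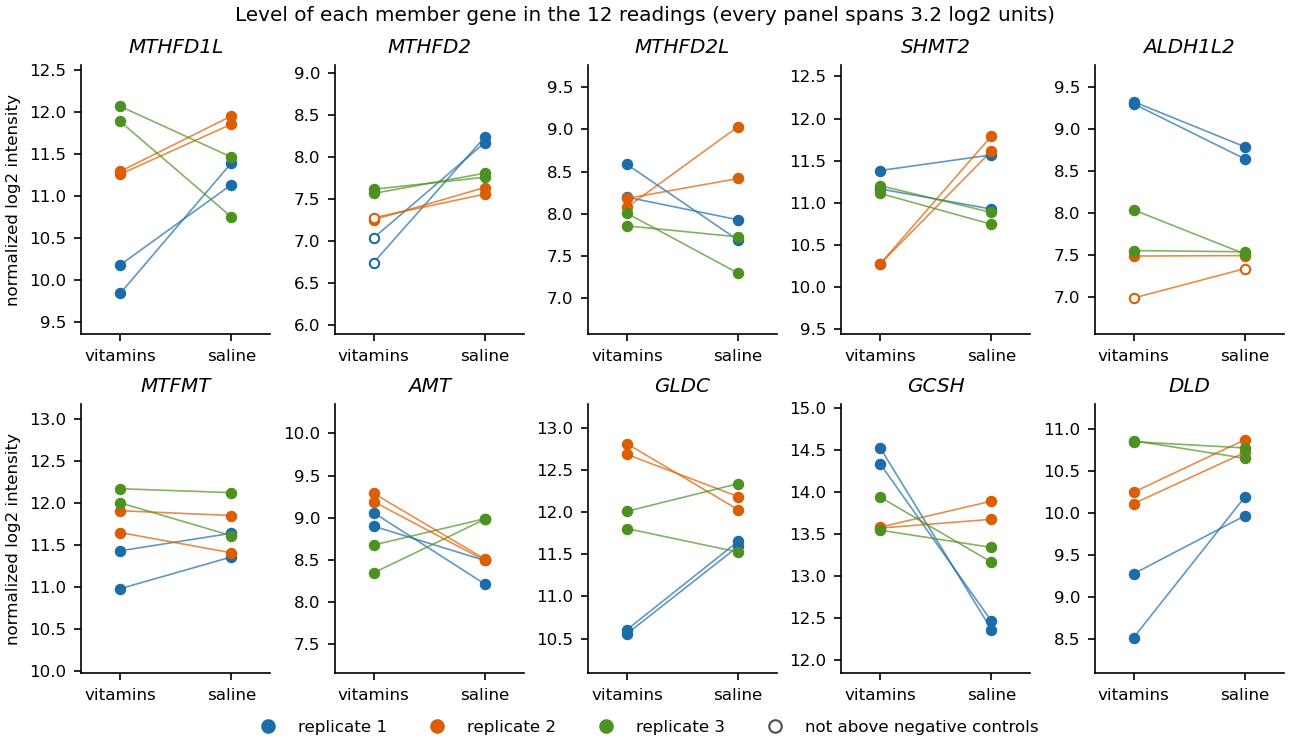
The panels give the normalized log2 intensity of each gene in every reading, vitamins left of saline, coloured by replicate, with open points for readings not above the negative controls. The groups overlap in all 10 panels, and MTHFD2 has 3 open vitamin points and no open saline point.

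GLDC, the P protein of glycine cleavage, removes the carboxyl group of glycine. Its level was 10.58, 12.75 and 11.91 in the vitamin replicates, against 11.62, 12.11 and 11.93 in the saline replicates. Vitamin samples again held both extremes, over a range of 2.17, against 0.48 in saline. The ratios were -1.04, 0.64 and -0.03, with a mean of -0.14 ± 0.85 (SD, n = 3, interval -1.12 to 0.84). Without replicate 1 the mean was 0.31.

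GCSH, the H protein, carries the lipoyl arm on which the glycine remnant is passed between the other subunits. Its level was 14.43, 13.57 and 13.74 with vitamins, against 12.41, 13.78 and 13.25 with saline. The saline sample of replicate 1 was the lowest of the 6 and the groups overlapped. The ratios were 2.01, -0.21 and 0.49, with a mean of 0.77 ± 1.14 (SD, n = 3, interval -0.50 to 2.03, limma adjusted p = 0.9998). Replicate 1 supplied most of it, since without it the mean was 0.14. The other 2 tested probes of GCSH were above 0 in every replicate, at 0.87, 0.26 and 0.23 on one and 0.54, 0.35 and 0.05 on the other. Their means, 0.45 ± 0.36 and 0.31 ± 0.24 (SD, n = 3 each), were smaller than that of the brightest probe and had narrower spreads. Neither passed the limma test, with unadjusted p of 0.0817 and 0.137.

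AMT, the T protein, transfers the one-carbon unit to tetrahydrofolate. Its level was 8.98, 9.24 and 8.51 with vitamins, against 8.35, 8.50 and 8.98 with saline. Replicates 1 and 2 were higher with vitamins and replicate 3 lower. The ratios were 0.63, 0.74 and -0.47, with a mean of 0.30 ± 0.67 (SD, n = 3, interval -0.51 to 1.11). Without replicate 2 the mean was 0.077 and without replicate 3 it was 0.68.

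DLD, the L protein, reoxidises the lipoyl arm and serves the pyruvate, oxoglutarate and branched-chain dehydrogenase complexes as well. Its level was 8.90, 10.18 and 10.86 with vitamins, against 10.08, 10.80 and 10.71 with saline. Replicates 1 and 2 were lower with vitamins, and replicate 3 was close to level. The ratios were -1.18, -0.62 and 0.14, with a mean of -0.55 ± 0.66 (SD, n = 3, interval -1.35 to 0.25, limma adjusted p = 0.9998). The value rested largely on replicate 1, since without it the mean was -0.24. Within glycine cleavage, then, GCSH and AMT had means above 0 and GLDC and DLD below 0, none past the test.

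Probes of 1 gene differed in size and sometimes in sign. For SHMT2, the brightest probe averaged -0.35, while the other tested probe averaged 0.04 ± 0.10 (SD, n = 3) and was above the controls in 5 of 6 vitamin readings and in 4 of 6 saline readings. That probe lay near the negative controls, with levels of 7.49, 7.71 and 7.35 in the vitamin replicates, against 7.56, 7.66 and 7.23 in the saline replicates. Such levels leave little room for a ratio as low as that of replicate 2 on the brightest probe, so the probes cannot be compared there. For MTHFD1L both probes had means below 0, and for GCSH all 3 had means above 0. Sequences of the probes are not held here, so which transcripts each one reads was not tested.

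**Figure D3:**
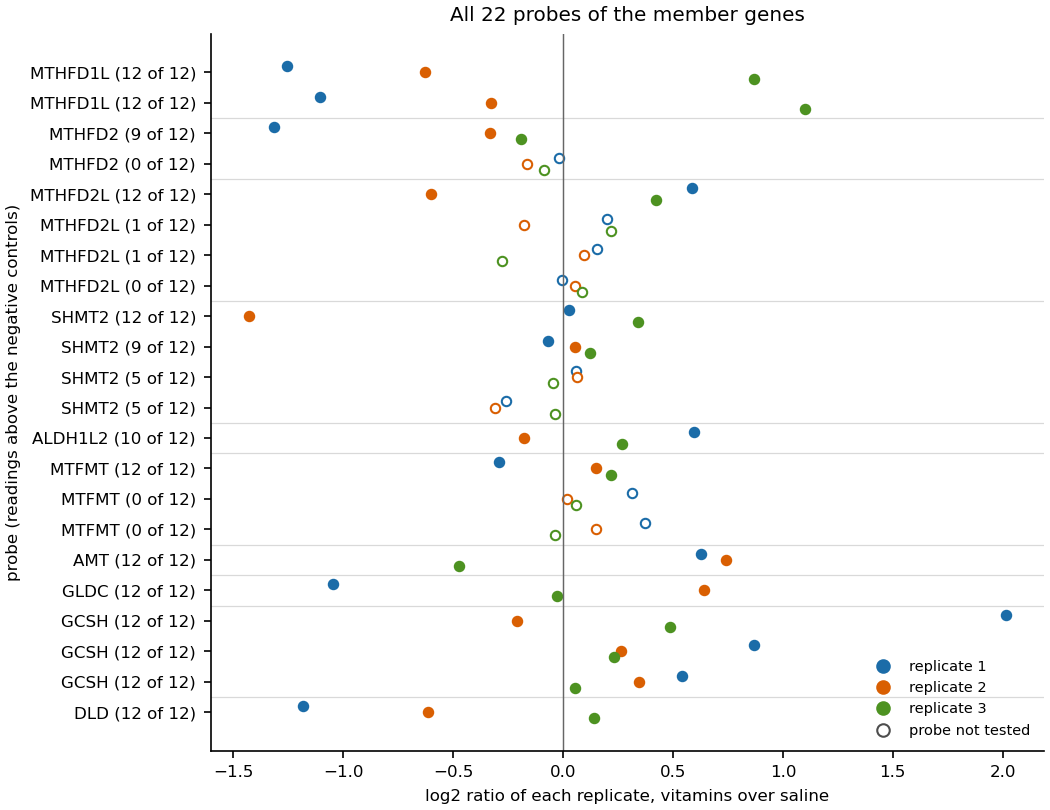
The plot gives the log2 ratio of vitamins over saline for each of the 22 probes in every replicate, slightly offset by replicate, with open points for probes too dim to test. The 3 tested GCSH probes average 0.77, 0.45 and 0.31, and the 2 tested MTHFD1L probes average -0.34 and -0.11.

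The arrays were paired by the correlation of their ratios, which itself favours small gaps within a pair, so the next count is a description read against all genes under the same pairing. For 10 of 10 genes the range of the 3 replicate ratios exceeded the largest gap between the arrays of any pair, a relation that held for 62.4% of all genes tested. The SD of 9 of the 10 genes was above the median SD of all genes (0.39), and their median SD was 0.67. These comparisons were not matched for signal level. Of the 10 genes, 8 were detected in all 12 readings, against 14893 of the 26714 probes that passed the detection filter. The replicate medians of the 10 genes were -0.13, -0.27 and 0.24, against -0.04, 0.01 and 0.02 over all genes. The levels of 8 of the 10 genes ranged wider over the vitamin replicates than over the saline replicates, against 52.3% of all genes. That difference in spread was not tested.

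The neighbouring pathways had no gene past the test either, and most had medians near 0. Serine and glycine supply, 8 genes, had 4 below and 4 above 0 and a median of 0.01. Its leading genes by unadjusted p were PHGDH, the first enzyme of serine synthesis, at -0.31 ± 0.49, and PSPH, the last, at -0.15 ± 0.25 (SD, n = 3 each). Of 4 genes of mitochondrial folate entry and use, only FPGS, which adds the glutamate tail that retains folate in the cell, was tested, at 0.05 ± 0.08 (SD, n = 3). The carrier SLC25A32 had no named probe, and DMGDH and SARDH were detected in 2 and 3 of 12 readings.

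Beside MTFMT stand the genes of the formyl-methionine start of mitochondrial translation, of which 4 of 5 were tested, 3 below and 1 above 0, with a median of -0.11. MTIF2, the mitochondrial initiation factor, was at -0.28 ± 0.64, and METAP1D, which removes the first methionine, at 0.09 ± 0.32 (SD, n = 3 each). Beside GCSH and DLD stand lipoate assembly and the other complexes that use DLD, with 12 of 13 genes tested, 8 below and 4 above 0 and a median of -0.12. Among these OGDH, the first subunit of the oxoglutarate dehydrogenase complex, was at 0.46, 0.97 and 1.02, a mean of 0.82 ± 0.31 (SD, n = 3, limma adjusted p = 0.979). NFU1, an iron-sulphur carrier for lipoate synthesis, was at -1.03, -0.34 and -0.39, a mean of -0.59 ± 0.39 (SD, n = 3, limma adjusted p = 0.9998). Both kept 1 direction in the 3 replicates, and they pointed opposite ways.

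The cytosolic folate enzymes and carriers, 12 of 15 tested, had 5 genes below and 7 above 0 and a median of 0.02. TYMS, which makes thymidylate with folate, was the lowest at -1.03 ± 0.27 (SD, n = 3, limma adjusted p = 0.924), although its 3 probes differed, with means from -1.03 to 0.12. GART, a purine synthesis enzyme that uses formyl-folate, was at -0.30 ± 0.43 (SD, n = 3). ATF4 is the transcription factor known to raise MTHFD2, SHMT2 and ALDH1L2 under amino acid stress, and 10 of the 16 genes of its list were tested. They had 6 below and 4 above 0 and a median of -0.08, with the asparagine synthetase gene ASNS at 0.46 ± 0.30 (SD, n = 3). ASNS was above 0 in all 3 replicates. PHGDH, also counted under serine and glycine supply, came second in this list by unadjusted p, at -0.68, 0.25 and -0.51. The part of ATF4 in the values of the 10 genes was not tested.

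**Figure D4:**
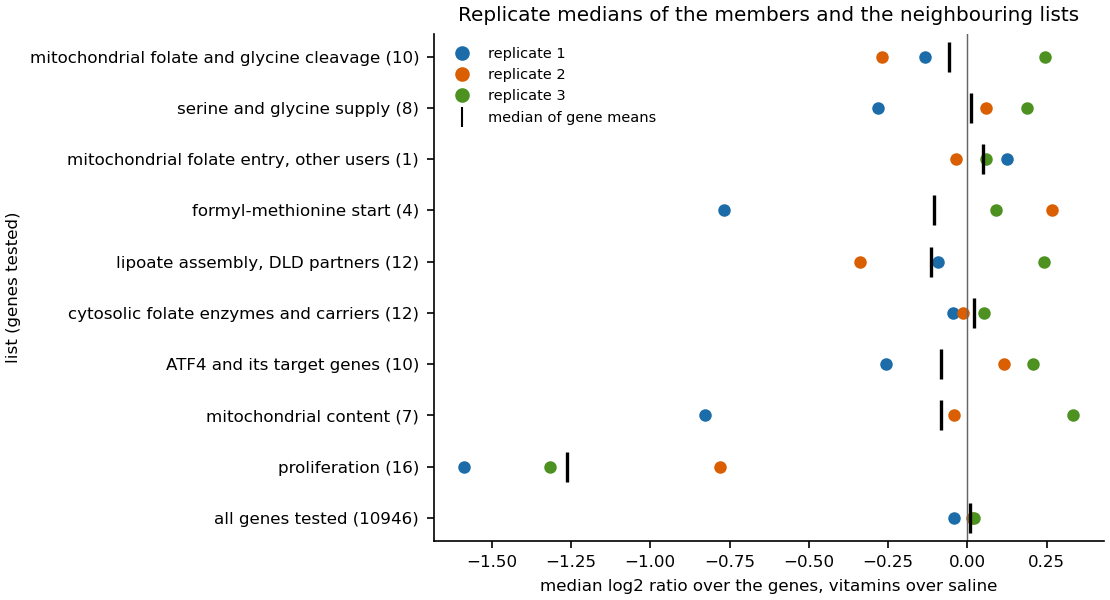
The plot gives the median log2 ratio of vitamins over saline for each gene list, over its tested genes, with the 3 replicate medians as points. The proliferation list, at -1.26, stands lowest, and the 10 mitochondrial folate and glycine cleavage genes lie at -0.06.

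Proliferation genes had lower values with vitamins, on a larger scale than the 10 genes, though none passed the adjusted test. All 16 were below 0 (5346 of 10946 over all genes), with a median of -1.26 and replicate medians of -1.59, -0.78 and -1.32, and 13 were lower in every replicate. At an unadjusted p under 0.05 in limma's fit, 12 of the 16 were lower, against 3.26% of all genes. These counts use the brightest tested probe of each gene, and other probes differed for some. The highest probe mean was -0.01 for CCNA2, -0.17 for AURKB and 0.12 for TYMS, but -1.03 for PCNA and -0.84 for RRM2. KIF11, a mitotic motor, was at -1.75 ± 0.31, and PCNA, the sliding clamp of DNA replication, at -1.55 ± 0.39 (SD, n = 3 each, limma adjusted p = 0.870 for both). General mitochondrial genes, 7 of 8 tested, had 5 below and 2 above 0, a median of -0.08 and replicate medians of -0.83, -0.04 and 0.33. VDAC1, an outer membrane channel, was at -1.10, -0.79 and 0.19. HSPD1, a matrix chaperone, was at -1.44, -0.18 and 0.48 on its brighter probe, while its 2 tested probes had means of -0.38 and 0.25. MTHFD1L, MTHFD2, MTFMT and DLD had their replicates in that same order, lowest in replicate 1 and highest in replicate 3. SHMT2, MTHFD2L, ALDH1L2, AMT, GLDC and GCSH did not, nor did the general mitochondrial genes CS and COX4I1. The order was seen in the values first, and its share over all genes was not counted. The part of proliferation or mitochondrial content in the values of the 10 genes was not tested.

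No marker of any cell type passed the limma test, the lowest adjusted p among them being 0.870, and their ratios varied by replicate. Of the granulosa markers, 9 of 9 were above 0, against 5600 of 10946 of all genes, with a median of 0.98 and INHA at 4.37, 0.37 and 1.05, and their mean level ranged from 10.88 to 12.55 over the vitamin readings and from 8.96 to 12.13 over the saline readings. Of 10 leukocyte markers tested, 9 were below 0, with a median of -0.27 but replicate medians of -1.98, 0.87 and -0.10. Their mean level ranged from 8.08 to 8.58 with vitamins and from 7.27 to 10.79 with saline, and TYROBP was at -4.49, 1.86 and -0.11. CD14 and CSF1R were detected in 5 and 2 of 12 readings. The leukocyte median was farthest from 0 in replicate 1. So were those of proliferation (-1.59), general mitochondrial genes (-0.83) and granulosa markers (0.94, against 0.92 in replicate 3). The same held for formyl-methionine start (-0.77), serine and glycine supply (-0.28), ATF4 (-0.26) and FPGS (0.12). It held for erythrocyte (-0.999) and endothelial (-0.59) markers and all genes (-0.04) too. It did not hold for the epithelial, theca and stroma, oocyte, cytosolic folate or lipoate lists. The median of the 10 genes was farthest from 0 in replicate 2 (-0.27). The ratios of GCSH, MTHFD2, MTHFD1L, GLDC, DLD, ALDH1L2 and MTFMT were farthest from 0 in replicate 1, in both directions. The share of all genes for which this held was not counted. Without replicate 1 the means of MTHFD1L, GLDC and MTHFD2L changed sign.

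The 7 theca and stroma markers, 4 below and 3 above 0, had a median of -0.04 and replicate medians of 0.17, 0.33 and -0.42, with mean levels from 8.03 to 9.52 with vitamins and from 7.996 to 9.85 with saline. COL3A1, a fibrillar collagen gene, was at -1.07, 1.11 and -2.84. DCN, a matrix proteoglycan gene, was at 2.69, 1.43 and -0.76, and the theca hormone gene INSL3 at 0.26, 0.23 and 0.29. DCN and INSL3 were picked after their values were seen, to show markers above 0. The 4 epithelial markers had replicate medians of -2.18, 4.63 and 0.57, and KRT8 was at -0.19, 6.87 and -0.09. Their mean levels ran from 8.52 to 12.79 with vitamins and from 7.47 to 12.69 with saline. Of the endothelial, erythrocyte and oocyte markers, PECAM1, ALAS2 and GDF9 were above the controls in 0 of 12 readings. TEK, an endothelial receptor, averaged -0.28, the oocyte factor BMP15 -0.20 and the haemoglobin gene HBA -0.77, lower in all 3 replicates. The part of these cell types in the values of the 10 genes was not tested.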

How the data were processed

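The deposited scanner files give the median intensity of each spot and of its local background in the Cy3 and Cy5 channels, per the file headers. The scanner and its program are unnamed in those sources. Per the labels' protocols, RNA was amplified before labelling, which can distort ratios alike on both arrays of a pair. A table of log2 ratios deposited by the authors comes without a description. Its columns correlated at 0.861 to 0.962 with the ratios computed here, running as vitamins over saline, with slopes from 0.71 to 0.98 and medians of 0.001, 0.015, -0.018, -0.007, -0.003 and 0.005 for arrays 1 to 6. Its background correction and normalization stay unknown, and it served as an alternative.

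Analysis used R 4.3.3 with limma 3.58.1. Intensities were corrected with normexp (offset 50) and normalized by loess within arrays, control spots at weight 0. Levels come from Aquantile normalization between arrays and are open to dye bias in a single reading. Spots marked ignored (2 to 71 per array) were left out. No reading of the 10 genes was saturated. Testing required detection in 6 or more of 12 readings. Ratios of a dye-swap pair were averaged, and the 3 replicate ratios set against 0 in a two-sided test (lmFit, eBayes). P-values were adjusted over 26713 probes by Benjamini-Hochberg, at a threshold of 0.05. Intervals are limma's 95% intervals and cover this spread only. The small number of arrays limits the precision.

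The labels do not pair the arrays. Among matchings of opposite dye orientation, the one of highest summed correlation (2.46, next 0.731) was arrays 1 and 2, 3 and 4, and 5 and 6. It affects spreads, not means. The brightest tested probe stands for a gene. The platform annotation names 1 gene for 21790 of the probes and none for 22004, and old symbols were updated (1524 probes). The 10 genes were all named, and from each further pathway list the 2 other genes of lowest unadjusted p, and from each marker list the marker of largest replicate ratio. A few further genes are named where their probes or replicates are described. Some lists share genes, which count in each. TYMS is in the cytosolic folate and proliferation lists, and SHMT1 in the cytosolic folate and serine lists. PHGDH, PSAT1 and PSPH are in the serine and ATF4 lists. The 10 genes and all lists were chosen with earlier results of these data known. The fit was tested on simulated data.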

Additional observations from a re-analysis of the deposited data

Results flagged for a closer look

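Within the 22 probes of the 10 genes, 3 results stood out, all on probes too dim to test. The MTHFD2L probe EMBV3_02888, detected in 1 of 12 readings, had a log2 ratio of -0.62 on array 6, far from its other 5 arrays. Such gaps arise by chance in about 1 in 20 sets of 6 arrays, and 66 sets were checked. The MTHFD2L probe EMBV3_23419, detected in 0 of 12 readings, changed the sign of its ratios with the dye orientation, with means differing by -0.62 (Cy5 minus Cy3). The SHMT2 probe EMBV3_42002, detected in 5 of 12 readings, did likewise, with a difference of 1.08. These orientation differences were not tested.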

How the results depend on the processing

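No gene of the 10 passed the adjusted threshold under any of 17 distinct alternative settings, the lowest adjusted p being 0.271. In limma's fit, 3 of the 10 had an unadjusted p under 0.05 with slide as a fixed term and 3 without replicate 3. The count was 1 with a trend on intensity, 1 with the 6 arrays as separate, and 0 under the other settings. Probes under that limit numbered 3317, 968, 1035 and 3153 in these settings, in the same order, against 1245 in the main fit. The median of the 10 genes lay between -0.19 and 0.08. Of 168 gene values, 156 kept their direction and 12 reversed. MTHFD2, GCSH, DLD, AMT and ALDH1L2 kept theirs wherever they had a value. Slide 2 alone and leaving out replicate 1 are the same fit, counted once here. MTFMT turned to -0.10 with median centring, -0.055 with slide as a fixed term, -0.091 on arrays with vitamins in Cy3 only and -0.0045 in the authors' deposited table, and GLDC to 0.0087 on arrays with vitamins in Cy3 only. Within slide 2, GLDC was 0.31, MTHFD1L 0.12 and MTHFD2L -0.088. Leaving out each replicate in turn gave -0.53 to 0.31 for GLDC, -0.072 to 0.18 for MTFMT, -0.94 to 0.12 for MTHFD1L, -0.088 to 0.50 for MTHFD2L and -0.70 to 0.18 for SHMT2. The cause of these reversals was not tested, except that the slide 2 values rest on replicates 2 and 3 alone. Treating the 6 arrays as separate, with a dye term, was the setting in which probes passed, 83 in all and none of the 10 genes. It takes repeated arrays of the same RNA as replicates and adds a dye term, and which of these moved the count was not tested. Slide as a random block could not be estimated. ALDH1L2 and MTHFD2 had no value when all 12 readings had to be detected. The main test already is a paired one, because each replicate is a direct vitamins to saline ratio, so no separate paired analysis was run. Signal over background limits MTHFD2, detected in 3 of 6 vitamin readings.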
